A study of Mus musculus with 40 samples.

Results

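The comparison followed B-lineage cells that carry a mutation in the zinc transporter ZIP7 from Hardy fraction C (FrC) to Hardy fraction D (FrD) in mouse bone marrow. Its members are 10 of the 40 libraries of the series, namely the 5 mutant FrC libraries and the 5 mutant FrD libraries, and they were paired by the mouse number in their titles (mice 4, 5, 8, 9 and 10). Marrow homozygous for P198A, a CRISPR/Cas9 change of proline to alanine in ZIP7, had been transferred into lethally irradiated CD45.1 hosts, and 100 donor cells (CD45.1- CD45.2+) were sorted for each library 8 weeks later. The titles write KO for this group although the allele changes a single residue, and the RNA level of Slc39a7 is therefore no test of the labels. The wild-type (WT) group came from the same kind of transfer with WT marrow into CD45.1 hosts at 8 weeks (mice 1, 2, 3, 6 and 7), and it supplied 10 libraries of FrC and FrD as the comparison for the size of each step. All mice were therefore irradiated chimeras, and neither their age nor the number of donors is stated in the labels. FrD cells were gated as B220+ CD43- IgM- IgD- and named late pre-B by the labels, while the labels do not state a gate for FrC.

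In the Hardy scheme, cells that have rearranged an immunoglobulin heavy chain gene assemble a pre-B cell receptor from that chain, the surrogate light chain (Vpreb1, Vpreb2 and Igll1) and the signalling chains Cd79a and Cd79b. Signals of this receptor and of the interleukin 7 receptor drive a burst of division of large pre-B cells. Cells then become small, leave the cell cycle, silence the surrogate light chain and express the recombinase Rag1 and Rag2 to rearrange a light chain gene. ZIP7 releases zinc from the endoplasmic reticulum and Golgi into the cytosol. The question put to the data was which RNAs differ between FrC and FrD in ZIP7 mutant cells, and whether that step differs from the WT step.

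The mutant FrC libraries were uneven. Endogenous totals were 18505637, 6383217, 38120623, 1723215 and 9704316 counts in FrC of mice 4, 5, 8, 9 and 10, the order used throughout, and 25430325, 14499642, 19606808, 43372070 and 23574091 counts in FrD. Genes with only 1 to 9 counts made up 7.61%, 22.6%, 6.27%, 56.8% and 29.4% of the detected genes in FrC and 4.98% to 13.4% in FrD. A library with over 15% of such genes is called low-complexity here, which applies to FrC of mice 5, 9 and 10 and, among the WT libraries of these fractions, to FrD of mouse 3. Results are therefore given with all 10 libraries, as 5 pairs, and again for the 2 FrC libraries of mice 4 and 8 against the 5 FrD libraries (the reduced set, fitted without pairs because only 2 complete pairs are left). Mouse as a block in the reduced set rests on the pairs of mice 4 and 8. Where this block changes whether a gene is called, the adjusted p from that edgeR fit follows as the paired adjusted p. With 2 pairs it holds little spread between mice and leans mostly on the variability that edgeR pools over genes. Fold changes are FrD over FrC on the log2 scale after edgeR's TMM scaling, given ± SE with an adjusted p from edgeR's quasi-likelihood test (Benjamini-Hochberg), a gene is called at an adjusted p under 0.05, and levels are CPM (counts scaled to 1000000 endogenous counts of the library). Lars2, a mitochondrial leucyl-tRNA synthetase gene chosen after its values were seen, stood at 1901.0, 22837.4, 1474.3, 6823.9 and 54042.8 CPM in FrC, highest in low-complexity libraries, and at 776.7, 13417.6, 1592.6, 1710.4 and 3687.6 CPM in FrD. The last 3 digits of the titles differ between the fractions of each mouse, so whatever they stand for cannot be told apart from fraction.

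The ratio of endogenous to ERCC counts measures RNA per library against the ERCC spike-in, 92 control transcripts that were part of the lysis mix. On the log2 scale it stood at 11.39, 12.80, 8.63, 13.75 and 9.28 in FrC and at 9.29, 9.06, 8.54, 8.60 and 8.58 in FrD. FrD was lower in 5 of 5 mice, although mouse 8 differed by only -0.09, and the fraction ranges overlapped little, with FrC of mouse 8 below FrD of mice 4 and 5 and FrC of mouse 10 just below FrD of mouse 4. Without the 3 most abundant ERCC transcripts the steps by mouse were -2.24, -3.13, -0.009, -6.59 and -0.003, so mice 8 and 10 hardly differed. The largest steps, of mice 9 and 5, rest on only 125 and 896 ERCC counts in FrC. The mean step was -2.36 ± 2.10 (SD, n = 5 mice), or 5.12-fold, and the exact paired permutation test gave p = 0.0625, the smallest that 5 pairs allow (adjusted over 5 library measures 0.3125). Without pairing, the exact permutation test over 252 arrangements gave p = 0.0397 (adjusted 0.198). The reduced set gave a difference of -1.20 (exact permutation p = 0.143). The WT step was -2.23 ± 0.33 (SD, n = 5), and the exact permutation test of the difference between the mutant and WT steps gave p = 0.921. Genes detected went the other way on average in mutants from WT, with a step of 265 ± 762 genes in mutants against -863 ± 272 in WT (SD over 5 mice). In mutants FrD was higher in 3 mice and lower in 2. The exact permutation test of the difference between the steps, on libraries not thinned to equal totals, gave p = 0.0238 (adjusted 0.0397). Without mouse 3, 6 or 7 that p was 0.0556.

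**Figure D1:**
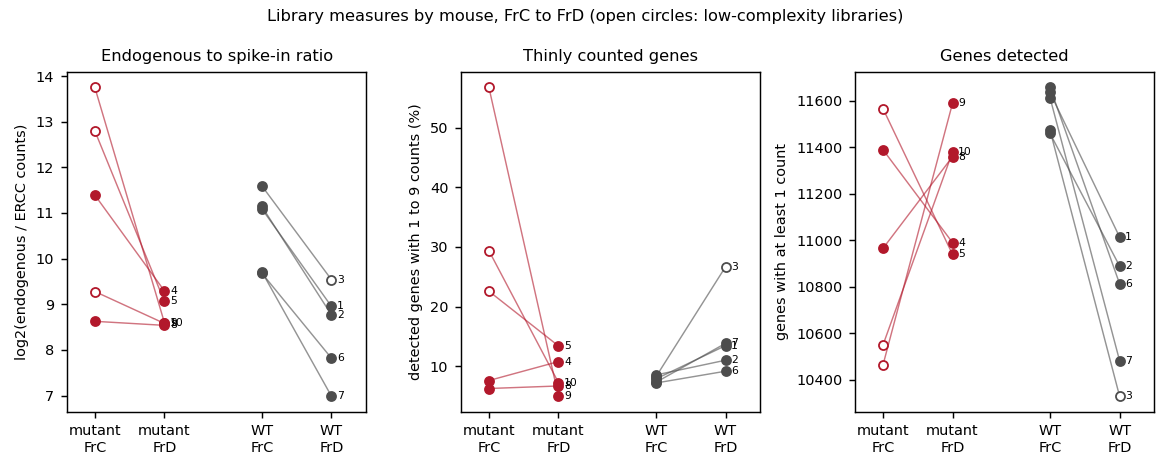
Log2 ratio of endogenous to ERCC counts, percent of detected genes with 1 to 9 counts and number of genes detected, by mouse, with a line joining FrC and FrD of a mouse and its number beside the FrD point. Mutant FrC ratios spread from 8.63 to 13.75 while mutant FrD ratios lie between 8.54 and 9.29, and open circles mark the low-complexity libraries.

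The sorted populations were checked against their defining surface genes. Ptprc, which encodes CD45 including its B220 form, was at 212.6, 64.7, 151.7, 28.4 and 261.8 CPM in FrC and 310.5, 532.3, 405.3, 380.1 and 408.2 CPM in FrD, and the FrD libraries all lay above the FrC libraries. Counts per gene take in every form of CD45, so these values cannot check the B220 gate. Spn, the gene of CD43 that the FrD gate excludes, was at 32.6, 179.4, 49.7, 0.0 and 114.4 CPM in FrC and 23.1, 43.1, 14.5, 29.3 and 21.3 CPM in FrD, so its RNA was present in every FrD library and the groups overlapped. Il2ra, the gene of CD25 on small pre-B cells, was at 16.0, 39.3, 9.7, 0.6 and 0.2 CPM in FrC and 54.1, 119.6, 61.7, 56.0 and 82.1 CPM in FrD, with no overlap. Its log2 fold change was 3.07 ± 1.03 (SE, edgeR adjusted p = 0.349) with 5 pairs and 2.55 ± 0.53 (adjusted p = 0.0368, paired adjusted p = 0.156) in the reduced set, where it rose. Enpep (BP-1), a surface marker that appears in FrC, was at 126.7, 0.6, 84.8, 4.6 and 75.9 CPM in FrC and 33.6, 6.9, 24.9, 8.9 and 16.2 CPM in FrD, high only in the FrC libraries of mice 4, 8 and 10. Cd24a stood between 2593.4 and 4097.5 CPM in FrD. In FrC it was lowest in mouse 9, at 635.4 CPM. Ighm and Ighd, which the FrD gate excludes on the surface, are not analysed here.

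With 5 pairs edgeR tested 10182 genes and called 7 higher in FrD (0.0687% of those tested) and 2 lower (0.0196%), while 936 genes had an unadjusted p under 0.05 (6.26% higher, 2.94% lower) and the median log2 fold change of all genes was 0.33. The 7 genes that rose were Cd2, Wfdc17, Otulinl, Apoc2, Clec4a3, Cd68 and Ms4a4a, and of these Cd2 belongs to the late pre-B program while Cd68, Clec4a3, Ms4a4a, Wfdc17 and Apoc2 are known from monocytes and macrophages. All 7 also rose in the reduced set. There Wfdc17, Apoc2 and Clec4a3 had only 1, 2 and 2 counts in FrC. These 3 passed the filter on low counts through FrD alone and could only lie above 0. Markers of granulocytes and monocytes were higher in FrD of 4 of the 5 mice, and their values follow. The 2 genes that fell were Ccnjl, a cyclin J-like gene, and Hsph1, which encodes a co-chaperone of HSP70, and neither was called in the reduced set. These calls depended on single mice, since leaving out both libraries of mouse 4, 5, 8, 9 or 10 gave 23, 2, 11, 0 and 1 genes higher and 11, 0, 11, 0 and 1 lower in edgeR, with 1072 at an unadjusted p under 0.05 without mouse 9, and DESeq2 called 400 higher and 331 lower. For comparison, the FrD libraries lay entirely above the FrC libraries for 499 of the 10182 genes tested (4.9%) and entirely below for 57 (0.56%).

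Cd2, an adhesion receptor that appears on B-lineage cells at the small pre-B stage (ENSMUSG00000027863, chromosome 3, 101275899 to 101287939, minus strand), stood at 15.8, 9.1, 7.6, 2.3 and 0.8 CPM in FrC and 263.9, 261.7, 202.3, 193.3 and 166.8 CPM in FrD. Every FrD library exceeded every FrC library. The log2 fold change was 4.78 ± 0.71 (SE, edgeR adjusted p = 0.0203) with 5 pairs and 4.25 ± 0.47 (adjusted p = 0.000972) in the reduced set, and WT cells had 3.32 ± 0.76 (adjusted p = 0.0705).

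Otulinl, an OTULIN-like gene of the endoplasmic reticulum membrane (ENSMUSG00000056069, chromosome 15, 27655069 to 27681579, minus strand), stood at 3.2, 0.2, 0.4, 0.6 and 0.3 CPM in FrC and 62.2, 28.1, 92.6, 127.2 and 84.5 CPM in FrD, with no overlap. The fitted step was 6.41 ± 1.10 (SE, adjusted p = 0.0497), and 5.49 ± 0.97 (adjusted p = 0.0166) in the reduced set. WT libraries were at 19.6, 19.7, 6.2, 19.1 and 23.5 CPM in FrC and 39.6, 36.1, 9.7, 49.8 and 13.1 CPM in FrD, a log2 fold change of 0.91 ± 0.74 (adjusted p = 0.687). The difference between the 2 steps of 5.52 ± 1.17 had an unadjusted p of 0.000214 in edgeR (adjusted 0.903) and was not called.

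Wfdc17, a secreted protein gene of activated macrophages (ENSMUSG00000069792, chromosome 11, 83703991 to 83706268, plus strand), was at 0.1, 0.0, 0.0, 2.9 and 0.3 CPM in FrC and 28.8, 110.7, 206.6, 285.3 and 173.3 CPM in FrD. Cd68, the macrophage sialomucin of lysosomes (ENSMUSG00000018774, chromosome 11, 69664213 to 69666153, minus strand), was at 1.0, 3.6, 4.5, 1.7 and 0.0 CPM in FrC and 92.9, 74.8, 125.4, 270.3 and 106.8 CPM in FrD. Neither overlapped between fractions, and mouse 9 held the highest FrD value of both. Their log2 fold changes were 9.08 ± 1.46 (SE, adjusted p = 0.0374) and 5.70 ± 1.03 (SE, adjusted p = 0.0497). Clec4a3, a C-type lectin receptor of myeloid cells, stood at 0.0, 3.0, 0.1, 0.6 and 0.4 CPM in FrC and 24.4, 64.6, 69.5, 201.2 and 98.8 CPM in FrD, and Ms4a4a, a membrane protein of macrophages, at 0.8, 0.2, 0.0, 0.6 and 0.4 and 38.9, 53.2, 49.3, 131.4 and 57.0 CPM. Their log2 fold changes were 7.44 ± 1.34 and 7.07 ± 1.28 (SE, adjusted p = 0.0497 each). Apoc2, an apolipoprotein that activates lipoprotein lipase, had 3 counts over the 5 FrC libraries and 5685 over the 5 FrD libraries, a ratio of 1115 between the CPM of the fractions (95% counting interval 381 to 5409, counting error only). Apoc2 passed the filter on low counts through FrD alone and could only lie above 0.

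Ccnjl (ENSMUSG00000044707, chromosome 11, 43528784 to 43586997, plus strand) stood at 7.4, 9.1, 2.8, 757.9 and 32.8 CPM in FrC and had no count in any of the 5 FrD libraries, so that it was at least 1090-fold lower against a floor of 3 counts over the group. Mouse 9, a low-complexity library, held most of this signal. Ccnjl was at least 180.2-fold lower in the reduced set but not called there (edgeR adjusted p = 0.193). In both fits Ccnjl passed the filter on low counts through FrC alone and could only lie below 0. WT libraries had 0.0 to 1.3 CPM in FrC and at most 3.3 CPM in FrD. Hsph1 (ENSMUSG00000029657, chromosome 5, 149614287 to 149636376, minus strand) stood at 103.3, 308.6, 97.3, 118.4 and 149.3 CPM in FrC and 22.4, 43.8, 9.0, 36.0 and 22.0 CPM in FrD, with no overlap. The step of Hsph1 was -3.31 ± 0.60 (SE, adjusted p = 0.0497) with 5 pairs, -1.90 ± 0.53 (adjusted p = 0.113) in the reduced set and -1.99 ± 0.79 (adjusted p = 0.29) in WT.

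**Figure D2:**
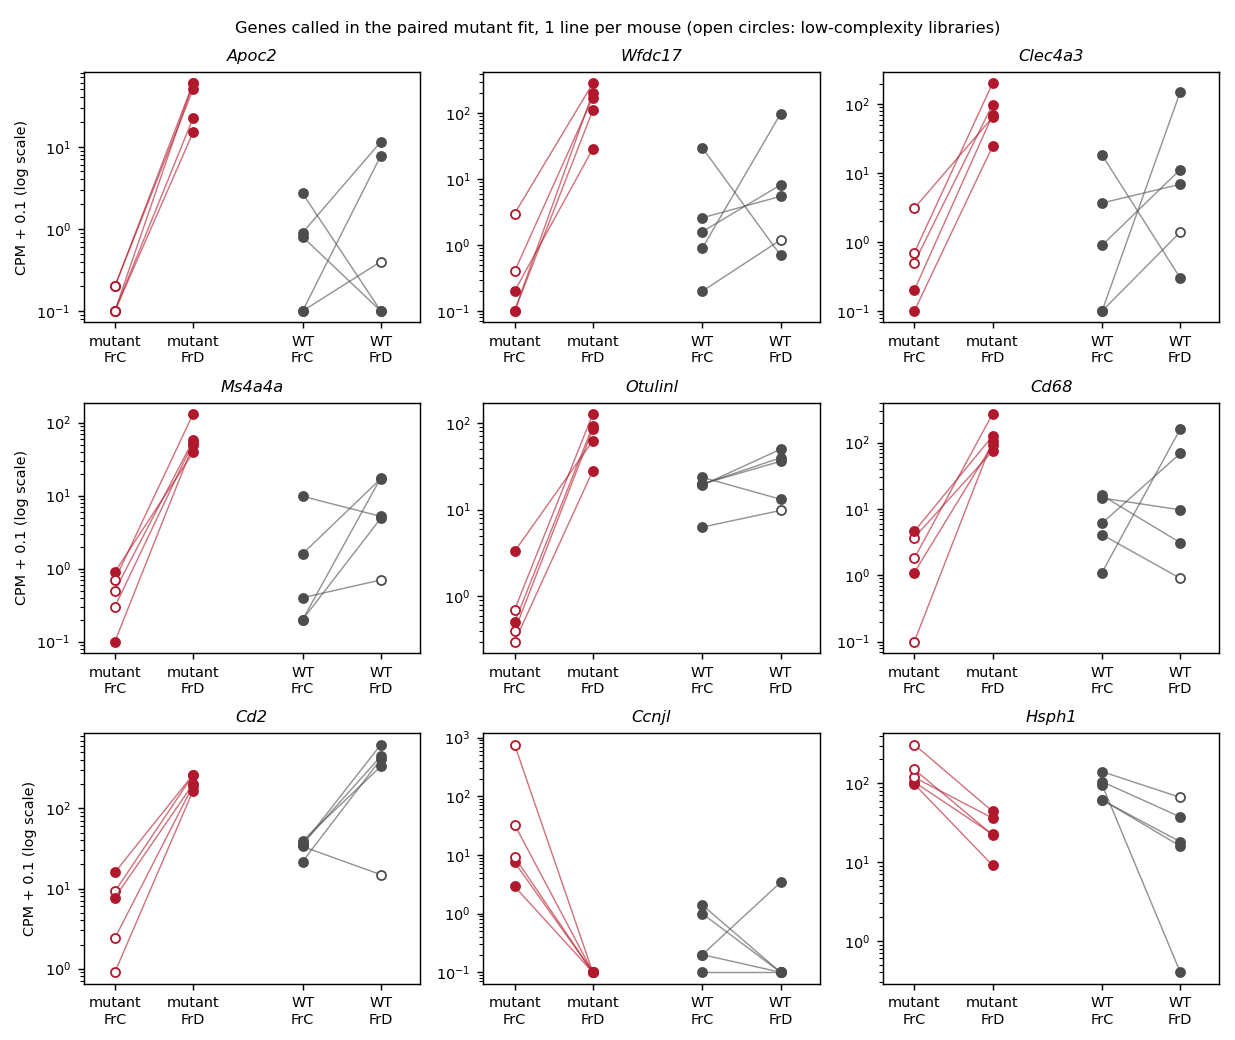
CPM plus 0.1 on a log axis for the 9 genes called with 5 pairs, with a line joining FrC and FrD of each mouse (mutant in red, WT in grey, open circles for low-complexity libraries). Mutant Cd2 lies at 0.8 to 15.8 CPM in FrC and 166.8 to 263.9 CPM in FrD, and Ccnjl has no count in any mutant FrD library.

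Next in rank were genes that did not pass. Gh, the growth hormone gene, was at 0.3, 0.8, 0.0, 0.0 and 0.0 CPM in FrC and 55.4, 139.0, 29.2, 10.8 and 5.2 CPM in FrD (log2 fold change 8.48 ± 1.60 SE, adjusted p = 0.0573). Its counts rose in WT (4.51 ± 0.92, adjusted p = 0.0401), where FrD libraries held 2.0 to 78.9 CPM. Gh ends 9475 bases from Cd79b on chromosome 11, on the same strand, and neither the strand setting nor the annotation used for counting is known here. Whether the counts listed for Gh are reads from Cd79b was not tested. Ifitm3 (an antiviral membrane protein), Ccr2 (a chemokine receptor of monocytes), Tent5a and Rnase6 had log2 fold changes of 3.78, 5.21, 7.79 and 3.86 and adjusted p of 0.0573 to 0.077, and all 4 rose in the reduced set (paired adjusted p of Tent5a 0.136). On the lower side Pus7, a pseudouridine synthase, was at 42.3, 76.0, 44.7, 34.8 and 60.3 CPM in FrC and 0.6, 3.4, 6.4, 5.6 and 0.4 CPM in FrD (-5.35 ± 0.99 SE, adjusted p = 0.0568), without overlap. Pus7 fell in WT (-8.69 ± 1.11, adjusted p = 0.00626). Tspan4 (a tetraspanin), Mogs (the first glucosidase of glycoprotein trimming) and Pelp1 stood at -9.53, -4.48 and -4.26 (adjusted p = 0.0724, 0.109 and 0.125). Tspan4 fell in the reduced set, where FrC had 2368 counts and FrD 3, and Mogs passed there only with pairs (paired adjusted p = 0.0358). Tspan4 passed the filter on low counts there through FrC alone and could only lie below 0.

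Without the low-complexity libraries 11519 genes were tested, 150 rose (1.3%) and 43 fell (0.373%), around a median of 0.11. Of the 150 genes that rose 62 also rose in WT without its low-complexity library (background 6.87%), and of the 43 that fell 41 also fell there (background 5.44%). Genes of growth and ribosome production (Myc, Ncl, Npm1, Gnl3, Nolc1, Ldha, Hspd1 and Hspe1) were among those that fell. Those that rose included Txnip, Klf2, Btg1 and Bcl6 of the quiescence list, 5 granulocyte and monocyte markers and 4 globin genes. With the 2 complete pairs as a block, 114 rose (1.07%) and 51 fell (0.477%) of 10693 genes. Of the 150 genes 82 were called higher in that fit too, and of the 43 genes 21 were called lower. Beyond the genes given by rank and list order, Tyrobp, S100a8, Csf3r, Ccnd3, Cdk6, Lars2, Ldha, Nolc1, Nop2, Pa2g4, Rps2, Btg1, Txnip, Bcl6, Ms4a1, Tnfrsf13c, Mki67, Top2a, Lck and Oasl2 are named because of values already seen.

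Genes of other marrow cells accompanied the step. The 22 granulocyte and monocyte markers summed to 38.0, 31448.4, 48.8, 334.3 and 967.6 CPM in FrC and to 16247.5, 12333.1, 16461.3, 25560.2 and 13983.1 CPM in FrD. FrD was higher in mice 4, 8, 9 and 10 and lower in mouse 5, whose FrC library held the highest sum of the 10 mutant libraries. Of the 22 markers 15 to 21 had a count in a FrC library and 20 to 22 in a FrD library. WT sums were 62.5 to 915.9 CPM in FrC and 71.3 to 81217.7 CPM in FrD, with a median of 2546.5 and the highest value in the low-complexity library of mouse 3. Without that library the median log2 fold change of the list in WT was -0.26. With 5 pairs 19 of 21 tested members lay above 0 at a median of 3.14, without the block 12 of 21 at 0.62, and none passed in either fit. In the reduced set 22 members were tested at a median of 9.27 (9.06 with the genes absent from FrC set at their lower bound), but 5 of them had no count in the 2 FrC libraries and passed the filter on low counts through FrD alone, so they could only lie above 0. Csf1r, Lyz2, Ly6c2, Fcgr3 and Csf3r rose there, and with the 2 pairs as a block 11 of 16 tested members rose. Csf3r had 1 count in the 2 FrC libraries. Csf3r and Csf1r also passed the filter through FrD alone and could only lie above 0. How many of the 11 passed the filter in this way is not given here. The 2 FrC libraries of the reduced set, of mice 4 and 8, held the lowest sums of this list in mutant FrC. Defining granule genes were not all high in FrD, since Mpo was at 0.2, 0.5, 28.2, 38.0 and 30.2 CPM and Elane at 0.1, 1.4, 4.9, 69.3 and 189.3 CPM there. The part of such cells in the other results was not tested, and in libraries of 100 cells fewer cells of a type and less RNA per cell cannot be told apart.

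Lyz2, the lysozyme of macrophages and granulocytes, stood at 21.8, 574.8, 35.2, 124.2 and 461.5 CPM in FrC and 6001.4, 3217.0, 12986.9, 22446.5 and 11145.2 CPM in FrD. Every FrD library lay above every FrC library. Fitted steps of Lyz2 were 5.40 ± 1.55 (SE, adjusted p = 0.251) with 5 pairs and 8.61 ± 0.90 (adjusted p = 0.000972) in the reduced set, against 5.28 ± 2.25 (adjusted p = 0.329) in WT. Csf1r, the receptor of the macrophage growth factor, was at 0.1, 35.7, 0.1, 1.7 and 4.9 CPM in FrC and 57.4, 45.1, 93.7, 285.0 and 92.6 CPM in FrD. Tyrobp, the DAP12 adaptor, was at 2.1, 225.7, 4.5, 13.9 and 14.2 CPM in FrC and 325.6, 668.3, 895.2, 1352.6 and 771.2 CPM in FrD, also without overlap. In contrast S100a8, a neutrophil calprotectin chain, overlapped, at 5.7, 11089.1, 0.4, 60.4 and 241.0 CPM in FrC and 2706.2, 3792.2, 422.4, 16.4 and 516.3 CPM in FrD.

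The 15 erythroid markers summed to 524.7, 3256.0, 546.0, 81541.8 and 855.3 CPM in FrC and to 7713.0, 1094.3, 7099.1, 5942.2 and 6648.2 CPM in FrD. Mouse 9 stood far above the others in FrC, and mouse 5 was the lowest in FrD. Hbb-bs, an adult beta globin, was at 5.6, 1123.6, 2.8, 55105.1 and 68.3 CPM in FrC and 3371.1, 341.4, 3350.7, 1845.0 and 3284.9 CPM in FrD. None of 10 tested erythroid markers passed with 5 pairs or without the block, and their median was 4.15 with pairs but -2.96 without the block, where 7 of 10 lay below 0. By comparison, the globin genes Hba-a1, Hba-a2, Hbb-bs and Hbb-bt rose in the reduced set. Its FrC libraries, at 524.7 and 546.0 CPM, held the lowest erythroid sums of mutant FrC. The globin pairs are near-identical copies whose reads can be split between them. In WT the erythroid sums went from 1341.5 to 7116.7 CPM in FrC to 425.2 to 33995.7 CPM in FrD, with a median of 523.5.

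NK cell markers summed to 4.6 to 185.4 CPM in FrC and 8.5 to 444.2 CPM in FrD, with 3 to 8 of 10 markers having a count in a FrD library, and T cell markers to 30.8 to 88.1 and 9.2 to 111.5 CPM. Basophil and mast cell markers were at 0.1 to 6.1 CPM in 4 FrD libraries and at 7747.0 CPM in mouse 8, where the protease Prss34 alone reached 4701.4 CPM. Plasmacytoid dendritic cell markers summed to 268.5 to 491.5 CPM in FrC and 586.5 to 2236.5 CPM in FrD, without overlap, but this list includes Cox6a2 and Ly6d, which B-lineage cells also express. Cox6a2 was at 23.5, 0.2, 11.4, 8.1 and 0.7 CPM in FrC and 216.5, 188.7, 110.7, 91.8 and 135.2 CPM in FrD and rose in the reduced set (3.13 ± 0.53, adjusted p = 0.0135). Plasma cell markers ran from 508.4 to 1753.5 CPM in FrC and 1779.4 to 2549.1 CPM in FrD, while Jchain, the joining chain of secreted antibody, was at 2.2 to 365.6 CPM in FrC and 0.2 to 11.4 CPM in FrD. Stromal markers ran from 73.7 to 803.4 CPM in FrC and 531.3 to 1264.0 CPM in FrD, and megakaryocyte markers from 0.9 to 15.7 and from 3.4 to 21.6 CPM.

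**Figure D3:**
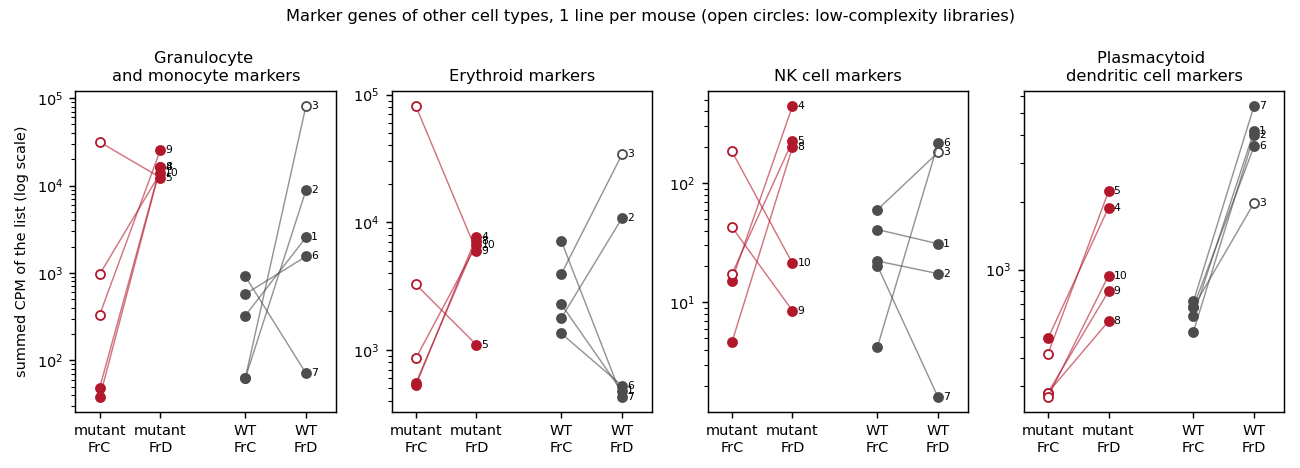
Summed CPM of 4 marker lists on a log axis, with a line joining FrC and FrD of each mouse, whose number stands beside the FrD point. Granulocyte and monocyte markers sum to 12333.1 to 25560.2 CPM in all 5 mutant FrD libraries, and to 31448.4 CPM in FrC of mutant mouse 5.

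The surrogate light chain was lower in mutant FrD, by values that did not pass with 5 pairs or in the reduced set without pairs but did pass with its 2 pairs. Vpreb1 stood at 1390.3, 1415.6, 1465.6, 3129.6 and 1809.9 CPM in FrC and 238.5, 11.8, 473.0, 320.2 and 1099.1 CPM in FrD. Each FrD library lay below each FrC library, with mouse 10 the highest and mouse 5 the lowest in FrD. The fitted step of Vpreb1 was -3.51 ± 1.33 (SE, adjusted p = 0.432) with 5 pairs and -1.75 ± 1.06 (adjusted p = 0.557) in the reduced set, where the 2 pairs gave -1.99 (paired adjusted p = 0.0236). Igll1 (lambda 5) stood at 2654.3, 1121.2, 3137.4, 3527.7 and 2013.8 CPM in FrC and 426.8, 2.5, 893.4, 519.0 and 1452.0 CPM in FrD, lower in 5 of 5 mice but with FrD of mouse 10 above FrC of mouse 5. The paired fit gave Igll1 -3.54 ± 1.44 (SE, adjusted p = 0.463). Vpreb2 stood at -2.24 (adjusted p = 0.618). With the 2 pairs of the reduced set Igll1 and Vpreb2 fell as well, to log2 fold changes of -2.12 and -2.05 (paired adjusted p = 0.015 and 0.0251). WT FrD libraries held 33.3 to 179.7 CPM of Vpreb1 and 6.3 to 272.3 CPM of Igll1, against 11.8 to 1099.1 and 2.5 to 1452.0 CPM in mutant FrD. The WT steps were -3.86 ± 0.84 and -4.81 ± 1.15, and the differences between genotypes of 0.36 ± 1.26 and 1.26 ± 1.66 did not pass (edgeR adjusted p = 0.965 and 0.924).

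The signalling chains were on the higher side. Cd79b stood at 1575.2, 428.5, 1678.2, 86.5 and 703.4 CPM in FrC and 5109.5, 4670.0, 3622.2, 2672.8 and 3541.7 CPM in FrD, with no overlap. Its log2 fold change of 1.97 ± 0.91 (SE, adjusted p = 0.538) did not pass, nor did the value of 1.30 ± 0.33 in the reduced set (adjusted p = 0.0786). Cd79a stood at 2909.3, 138.6, 2290.8, 167.1 and 774.2 CPM in FrC and 3228.2, 2303.5, 3316.8, 2778.0 and 3364.1 CPM in FrD. The low-complexity FrC libraries of mice 5, 9 and 10 were low, while FrC of mouse 4 lay within the FrD range and that of mouse 8 just below it. Its log2 fold change was 1.38 with 5 pairs and 0.23 in the reduced set. Of 26 genes of receptor signalling 17 lay above 0 at a median of 0.34 (-0.01 with the 2 pairs of the reduced set) and none passed. Lyn, a Src-family kinase of the receptor, rose in the reduced set (1.36 ± 0.29, adjusted p = 0.0392, paired adjusted p = 0.0741). Syk stood at 1.47, Btk at 1.15 and the adaptor Blnk at -0.28 (adjusted p = 0.541, 0.709 and 0.961).

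The recombinase genes were higher in FrD of every mutant mouse without passing the test. Rag1 stood at 19.8, 8.0, 57.4, 5.8 and 129.4 CPM in FrC and 78.7, 191.3, 107.8, 122.8 and 228.0 CPM in FrD. FrC of mouse 10 reached into the FrD range. Rag1 had a step of 1.74 ± 0.71 (SE, adjusted p = 0.463) in mutants and 3.76 ± 0.59 (adjusted p = 0.0151) in WT, where it rose, and the difference of -2.02 ± 0.79 between the steps had an unadjusted p of 0.0208 (edgeR, adjusted 0.903). Rag2 stood at 42.3, 1.1, 134.9, 7.5 and 1.4 CPM in FrC and 269.4, 81.4, 173.6, 234.3 and 188.8 CPM in FrD (3.44 ± 0.94 SE, adjusted p = 0.218). In the reduced set Rag1 and Rag2 had 1.91 and 1.12 (adjusted p = 0.115 and 0.408). Polm, a polymerase of end joining, was at 47.9, 1.4, 42.2, 2.3 and 3.5 CPM in FrC and 89.3, 177.1, 87.2, 109.6 and 124.9 CPM in FrD (3.03 ± 0.96 SE, adjusted p = 0.306). Dntt, which adds untemplated bases at heavy chain joints, ran from 50.5 to 416.5 CPM in FrC and from 0.4 to 585.1 CPM in FrD, with mouse 10 the highest there. Of 16 genes of V(D)J recombination 10 lay above 0 and none passed (median 0.36).

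**Figure D4:**
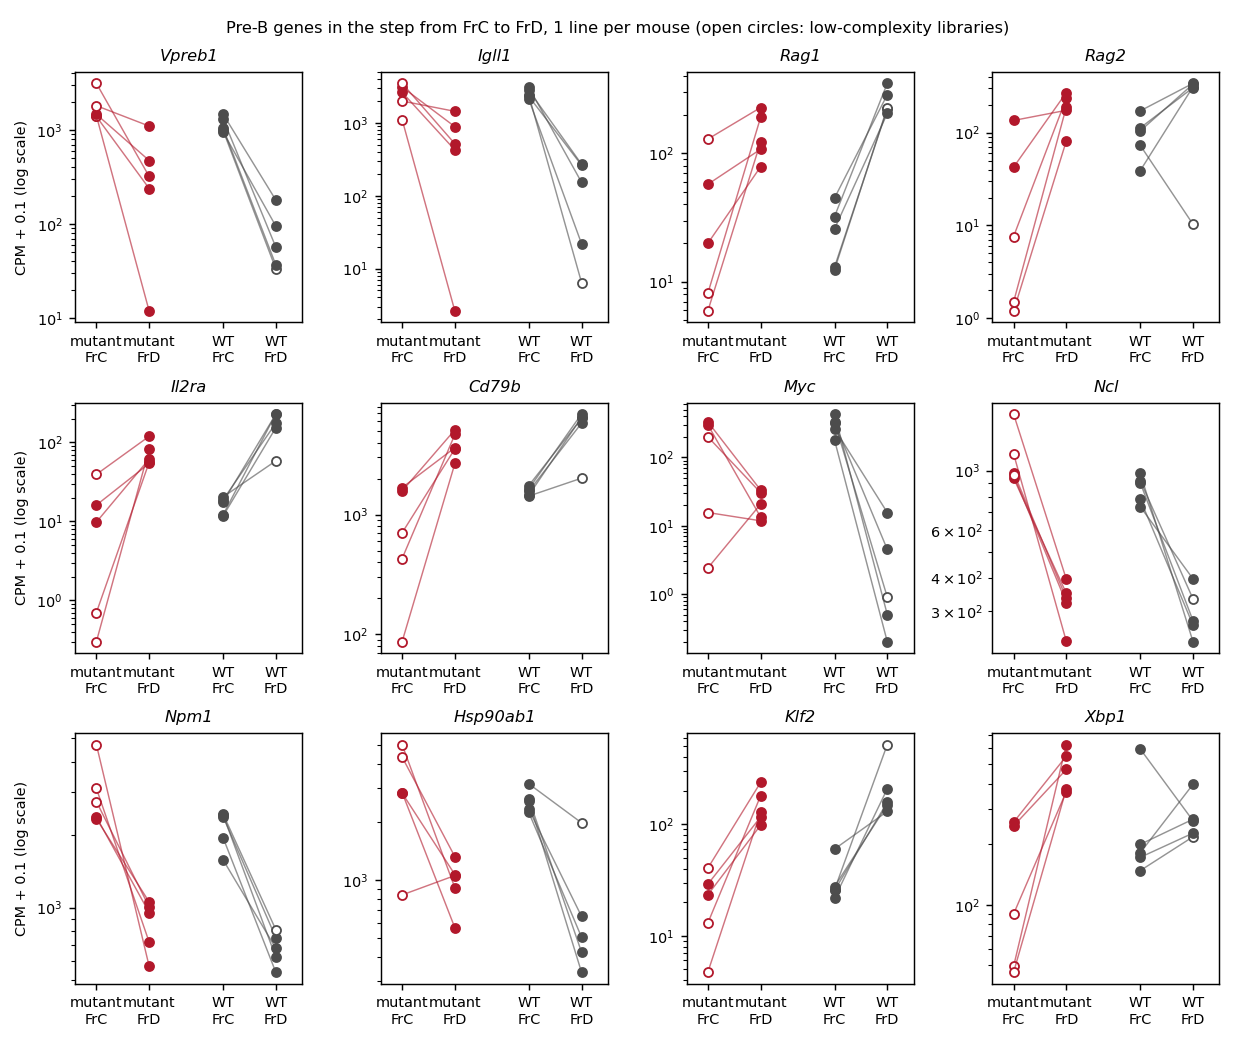
CPM plus 0.1 on a log axis for 12 genes of the pre-B stages, with a line joining FrC and FrD of each mouse (mutant in red, WT in grey, open circles for low-complexity libraries). Mutant FrD libraries hold 11.7 to 33.2 CPM of Myc and WT FrD libraries 0.1 to 15.5 CPM.

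Several growth genes downstream of interleukin 7 and pre-B cell receptor signals were lower. Myc, a transcription factor of growth (ENSMUSG00000022346, chromosome 15, 61985391 to 61990374, plus strand), stood at 332.3, 15.5, 300.9, 2.3 and 200.6 CPM in FrC and 33.2, 11.7, 13.3, 20.6 and 30.4 CPM in FrD. Mice 4, 8 and 10 were high in FrC, whereas FrC of mice 5 and 9 lay in or below the FrD range. The log2 fold change was -2.41 ± 0.81 (SE, adjusted p = 0.349) with 5 pairs and -3.83 ± 0.43 (adjusted p = 0.000972) in the reduced set, where Myc fell. In WT Myc fell by 7.64 on the log2 scale (adjusted p = 0.00935), from 433.7, 264.1, 333.5, 320.9 and 180.3 CPM in FrC to 0.4, 15.5, 0.8, 4.4 and 0.1 CPM in FrD. The step in mutants was smaller by 5.24 ± 1.32 (SE) on the log2 scale, with an unadjusted p of 0.00102 in edgeR, but did not pass (adjusted p = 0.903). That difference includes the low-complexity FrC libraries of mice 5 and 9, where Myc was low. Without low-complexity libraries and pairs, no gene of the list of MYC targets, which holds Myc, had a difference above 2.56.

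Ccnd2, a cyclin D gene induced by interleukin 7, stood at 710.5, 1024.2, 817.6, 30.2 and 851.2 CPM in FrC and 191.7, 6.4, 101.7, 99.9 and 326.8 CPM in FrD (-2.71 ± 0.88 SE, adjusted p = 0.319), and it passed in the reduced set only with pairs (paired adjusted p = 0.0246). Apart from mouse 9 each mutant mouse was higher in FrC. Ccnd3, the D cyclin of pre-B division, was lower in FrD of mice 4, 5 and 8 and higher in mice 9 and 10 (-0.45, adjusted p = 0.888). Cdk6, the kinase partner of D cyclins, stood at 981.9, 935.7, 978.2, 87.0 and 622.5 CPM in FrC and 243.3, 35.9, 258.1, 98.3 and 192.9 CPM in FrD, and it fell in the reduced set (-2.53 ± 0.55, adjusted p = 0.0438). Pim1, a STAT5 target kinase, rose there (2.30 ± 0.49, adjusted p = 0.0392, paired adjusted p = 0.0833), and Il7r stood at 1.40 with 5 pairs (adjusted p = 0.573). Of 17 tested genes of the interleukin 7 and STAT5 list 10 lay above 0, at a median of 0.38 (-0.30 with the 2 pairs of the reduced set) against -0.80 for 19 genes in WT. Medians of all genes were 0.33 (-0.03) in mutants and -0.29 in WT.

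MYC targets and ribosome biogenesis genes lay lower nearly throughout. With 5 pairs 29 of 30 lay below 0 at a median of -1.58, beside 0.33 for all genes tested, and none passed. In the reduced set the median was again -1.58 and 8 fell: Myc, Ncl, Npm1, Nolc1, Gnl3, Ldha, Hspd1 and Hspe1. With the 2 pairs as a block 5 fell, Myc, Gnl3 and Ldha among them, while Ncl, Npm1, Nolc1, Hspd1 and Hspe1 did not pass (paired adjusted p = 0.0619, 0.105, 0.0664, 0.0517 and 0.0711). The WT median was -2.12, beside -0.29 for all genes tested in WT. Because the list was chosen with earlier results known, its counts describe these libraries only.

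Ncl, nucleolin of the nucleolus, stood at 938.1, 1622.4, 983.1, 1154.8 and 959.7 CPM in FrC and 349.5, 394.6, 335.1, 231.8 and 322.6 CPM in FrD, without overlap. Npm1, nucleophosmin, stood at 2369.3, 3109.6, 2331.4, 4717.3 and 2743.8 CPM in FrC and 953.0, 719.8, 1055.0, 571.9 and 1006.5 CPM in FrD, also without overlap and with mouse 9 the highest in FrC and the lowest in FrD. Their log2 fold changes with 5 pairs were -2.39 ± 0.92 and -2.33 ± 1.19 (SE, adjusted p = 0.436 and 0.587), and in the reduced set -1.53 ± 0.27 and -1.42 ± 0.28 (adjusted p = 0.016 and 0.028). Gnl3, a nucleolar GTPase, had -2.52 ± 0.46 in the reduced set (adjusted p = 0.0193), and Pa2g4, a nucleolar growth regulator, had -2.03 ± 0.26 (adjusted p = 0.00243). The spermidine synthase Srm stood at -3.28 ± 0.92 with 5 pairs (SE, adjusted p = 0.227).

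MYC binds the E-box CACGTG. To show where these letters sit, the 160 bases before the start are printed for 3 of the 4 genes of the list whose promoter holds them, from RefSeq (build GRCm38.p6, both strands searched, the motif being its own reverse complement), on the strand of the gene with the motif in capitals. They are Ldha (lactate dehydrogenase, chr7:46845644-46845803, plus strand), Hspd1 (the mitochondrial chaperonin HSP60, chr1:55088244-55088403, minus strand) and Nop2 (an rRNA methyltransferase, chr6:125131723-125131882, plus strand), and Eif4a1 is the other.
Ldha: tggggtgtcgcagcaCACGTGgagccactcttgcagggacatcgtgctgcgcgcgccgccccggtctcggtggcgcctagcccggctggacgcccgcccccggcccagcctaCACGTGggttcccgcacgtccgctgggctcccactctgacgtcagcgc
Hspd1: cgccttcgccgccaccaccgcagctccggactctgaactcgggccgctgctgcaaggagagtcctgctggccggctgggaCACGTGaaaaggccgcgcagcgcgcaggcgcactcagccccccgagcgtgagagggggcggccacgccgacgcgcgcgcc
Nop2: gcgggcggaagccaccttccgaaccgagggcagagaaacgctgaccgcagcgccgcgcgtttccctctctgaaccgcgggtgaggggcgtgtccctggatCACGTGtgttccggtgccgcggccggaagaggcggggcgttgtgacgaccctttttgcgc
The Ldha window holds the motif 2 times and the others once. Over the whole list 4 of 28 windows of 250 bases before a start (23 of its genes matched) held CACGTG, or 14.3%, beside 6.02% of the 32851 windows of all genes. A match describes the letters only. Ldha stood at 2902.5, 1328.8, 2815.0, 95.2 and 1130.5 CPM in FrC and 726.9, 201.3, 858.5, 543.9 and 794.0 CPM in FrD, and it fell in the reduced set (-2.17 ± 0.42, adjusted p = 0.025). Hspd1 stood at 348.7, 801.6, 387.2, 13.3 and 375.3 CPM in FrC and 89.4, 39.8, 143.4, 71.7 and 97.6 CPM in FrD, and it fell there as well (-2.04 ± 0.39, adjusted p = 0.0256, paired adjusted p = 0.0517). Both were higher in FrC of every mouse but mouse 9. Nop2 was called in the reduced set only with pairs (-2.69 ± 0.69, adjusted p = 0.0868, paired adjusted p = 0.0231).

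Glycolysis genes were mostly lower, with 15 of 20 below 0 at a median of -0.59 and none passing, and in the reduced set Tpi1 (triose phosphate isomerase, -1.90 ± 0.40, adjusted p = 0.0388, paired adjusted p = 0.0629) and Ldha fell. The WT median was -1.92, while the medians of all genes were 0.33 in mutants and -0.29 in WT. Heat shock chaperones stood at -1.36, with 7 of 10 below 0 and Hsph1 called. Hsp90ab1, a cytosolic HSP90, was at 2833.9, 5014.1, 2815.5, 837.4 and 4323.4 CPM in FrC and 566.0, 910.8, 1066.4, 1054.8 and 1320.0 CPM in FrD. Mouse 9 alone did not show the lower value in FrD. Hsp90ab1, Hsp90aa1, Hspd1 and Hspe1 fell in the reduced set (-1.52, -1.27, -2.04 and -1.54, paired adjusted p of Hsp90aa1 0.116), while the co-chaperone Dnajc7 rose (2.63 ± 0.45, adjusted p = 0.0144). Dnajc7 stood at 96.2, 59.8, 138.2, 8.7 and 84.5 CPM in FrC and 787.4, 1204.2, 540.3, 510.9 and 515.5 CPM in FrD, without overlap, and rose in WT too (3.56 ± 0.49, adjusted p = 0.00802).

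Cytosolic ribosomal protein genes lay below 0 in 77 of 85 cases at a median of -1.26 with 5 pairs, and none passed. In the reduced set the median was -0.26, with 66 of 85 below 0. The WT median was -0.14 with 5 pairs. Without low-complexity libraries, the setting like the reduced set, it was -0.42 in WT, with 74 of 85 below 0 and 14 called lower. Rps21 stood at 256.5, 2390.3, 400.3, 1305.1 and 1295.5 CPM in FrC, where mice 5, 9 and 10 were high, and 187.8, 502.1, 252.1, 139.6 and 217.7 CPM in FrD. Rps2, the only member called in the reduced set, fell by 1.39 on the log2 scale (adjusted p = 0.028, paired adjusted p = 0.103), from 1688.9, 1272.2, 1577.3, 1156.0 and 1322.4 CPM in FrC to 481.3, 461.7, 826.3, 548.7 and 761.8 CPM in FrD, without overlap.

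Medians of cell cycle genes lay below 0. Of 38 genes of G2 and mitosis 25 lay below 0 at a median of -0.39, and of 38 genes of G1/S and replication 21 at a median of -0.25, with none called in either. The reduced set gave 34 of 38 below 0 (median -0.41) and 30 of 38 below 0 (median -0.53). With 5 pairs the WT medians were -0.42 and -0.93, beside -0.29 for all genes tested in WT. Ccnb1, the mitotic cyclin B1, fell in the reduced set (-1.60 ± 0.34, adjusted p = 0.0388, paired adjusted p = 0.106). Plk1, a mitotic kinase, stood at 258.3, 392.4, 253.0, 45.8 and 538.8 CPM in FrC and 75.2, 150.2, 60.6, 68.7 and 38.8 CPM in FrD (-2.36 ± 0.60 SE, adjusted p = 0.185, paired adjusted p = 0.0487 in the reduced set). It was lower in FrD of every mouse but mouse 9. Mki67 and Top2a, proliferation markers, stood at 492.1 to 978.0 and 478.4 to 1243.9 CPM in FrD, with log2 fold changes of -1.03 and -1.14 (adjusted p = 0.722 and 0.729).

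Genes of quiescence lay mostly above 0. With 5 pairs 19 of 21 tested genes of the FOXO and quiescence list lay above 0 at a median of 1.52 without passing. In the reduced set 19 of 22 lay above 0 at 1.23, of which 1 had no count in FrC and could only lie above 0. In that set 4 rose, none of which passed with the 2 pairs as a block. These were Klf2, a transcription factor of resting lymphocytes (2.56 ± 0.44, adjusted p = 0.0148, paired adjusted p = 0.0664), Txnip, an inhibitor of glucose uptake (1.91 ± 0.32, adjusted p = 0.0116, paired adjusted p = 0.0631), Btg1, an antiproliferative gene (1.76 ± 0.37, adjusted p = 0.0362, paired adjusted p = 0.0808), and Bcl6, a repressor induced when pre-B cells stop dividing (2.85 ± 0.56, adjusted p = 0.027, paired adjusted p = 0.0989). Klf2 stood at 28.9, 40.3, 23.2, 4.6 and 12.9 CPM in FrC and 116.1, 237.3, 98.1, 128.4 and 179.7 CPM in FrD, and Btg1 at 209.4, 178.4, 283.4, 39.5 and 400.1 CPM in FrC and 1085.5, 1007.4, 566.9, 648.3 and 797.9 CPM in FrD. Neither gene overlapped between fractions. Foxo1 stood at 115.4, 238.4, 101.0, 2.9 and 65.0 CPM in FrC and 269.2, 585.8, 212.0, 142.9 and 310.5 CPM in FrD (1.52 ± 0.52 SE, adjusted p = 0.364), higher in 5 of 5 mice. Txnip was at 1373.6 CPM in FrC of mouse 9 and at most 102.3 CPM in the other FrC libraries.

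Genes of immature and mature B cells had 21 of 24 members above 0 at a median of 1.66 with 5 pairs, none passing, and 19 of 24 at 1.14 in the reduced set, against 1.21 in WT. H2-DMa, a chain of the MHC class II peptide loader, and Fcrla, an Fc receptor-like protein of B cells, rose in the reduced set (1.99 ± 0.41 and 1.46 ± 0.32, adjusted p = 0.0331 and 0.0439, paired adjusted p of H2-DMa 0.0764). Fcrla stood at 561.0, 311.9, 565.1, 22.1 and 128.5 CPM in FrC and 2036.0, 1526.1, 1458.5, 1143.6 and 1391.2 CPM in FrD, without overlap. Cd74, the invariant chain, stood at 324.1, 66.9, 49.1, 116.6 and 4.5 CPM in FrC and 787.5, 1084.7, 516.8, 1217.0 and 441.8 CPM in FrD (2.98 ± 0.89 SE, adjusted p = 0.281). Ms4a1, the gene of CD20, differed in pattern, at 36.6, 9.1, 7.8, 30.8 and 4.7 CPM in FrC and 1.6, 2.3, 20.8, 0.4 and 5.6 CPM in FrD, and was higher in mice 8 and 10 only (-2.44 ± 1.57 SE, adjusted p = 0.673). WT libraries held 114.1 to 586.8 CPM of Ms4a1 in FrD. The BAFF receptor gene Tnfrsf13c was at 107.3, 1.1, 62.9, 13.9 and 3.4 CPM in FrC and 71.2, 41.0, 55.0, 72.3 and 51.7 CPM in FrD, lower in mice 4 and 8 and higher in the others.

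Homing receptors had 13 of 14 members above 0 at a median of 1.02, none passing. S1pr1, the receptor for egress from marrow, stood at 10.4, 1.7, 21.9, 0.6 and 0.1 CPM in FrC and 66.5, 97.0, 53.8, 52.0 and 76.6 CPM in FrD, without overlap (4.16 ± 1.23 SE, adjusted p = 0.28). Cxcr4, the retention receptor, was at 31.0, 55.9, 24.6, 25.0 and 39.2 CPM in FrC and 68.1, 113.9, 70.0, 60.2 and 66.0 CPM in FrD, also without overlap, yet its fitted step of 0.47 was near the median of all genes. Itgb7, an integrin chain, rose in the reduced set, where FrC had no count (at least 2127-fold, counting error only). It passed the filter on low counts there through FrD alone and could only lie above 0. Its WT values were at most 13.2 CPM in both fractions. Of 24 transcription factors of the B lineage 17 lay above 0 (median 0.25) and none passed. Pax5 and Ebf1 stood at -0.32 and 0.36 (adjusted p = 0.901 and 0.901), Spib at 1.11 and Lef1, a factor of early B cells, at -1.48 (adjusted p = 0.559 and 0.386). Lck, a kinase gene, fell in the reduced set (-2.48 ± 0.48, adjusted p = 0.025, paired adjusted p = 0.0643).

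Because ZIP7 sits in the endoplasmic reticulum, genes of its stress responses were examined. Of 32 genes of the unfolded protein response and ER chaperones 26 lay above 0 at a median of 0.75 with 5 pairs, beside 0.33 for all genes, and none passed. In the reduced set 24 of 32 lay above 0 at 0.32, beside 0.11 for all genes, again with none passing. The WT median with 5 pairs was 0.11, beside -0.29 for all genes in that fit, so both genotypes lay above their own background. For the difference between the steps the list median was 0.62, beside 0.68 for all genes. Xbp1, a transcription factor of this response, stood at 257.5, 89.9, 246.7, 49.3 and 46.1 CPM in FrC and 549.0, 366.1, 471.6, 626.6 and 377.0 CPM in FrD, without overlap (1.42 ± 0.54 SE, adjusted p = 0.435). Manf, an ER-resident secreted factor, stood at 304.3, 239.7, 294.0, 14.5 and 143.0 CPM in FrC and 554.6, 497.9, 509.9, 362.0 and 357.2 CPM in FrD (1.0 ± 0.53 SE, adjusted p = 0.596), also without overlap, while its WT step was -0.35 ± 0.46 and the difference between steps had an unadjusted edgeR p of 0.0475 (adjusted 0.903). Hspa5 (BiP), the main ER chaperone, was at 591.8, 760.0, 861.1, 218.8 and 819.1 CPM in FrC and 702.7, 613.0, 768.6, 1066.2 and 749.3 CPM in FrD, overlapping (-0.34, adjusted p = 0.908).

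The integrated stress response had 12 of 19 tested members above 0 at a median of 0.53 with 5 pairs, 0.09 in the reduced set (-0.18 with its 2 pairs) and -1.12 in WT, with none passing in mutants and 2 falling in WT. Medians of all genes in these fits were 0.33, 0.11 (-0.03 with the 2 pairs) and -0.29. Ddit3, the gene of CHOP, stood at 45.0, 14.1, 70.1, 2.9 and 199.7 CPM in FrC and 181.5, 291.0, 82.9, 88.2 and 97.3 CPM in FrD (1.41 ± 0.84 SE, adjusted p = 0.645). Only mouse 10 was lower in FrD. Phgdh, the first enzyme of serine synthesis, stood at 566.9, 116.2, 621.1, 266.4 and 722.4 CPM in FrC and 35.5, 23.2, 199.7, 222.2 and 187.8 CPM in FrD, lower in 5 of 5 mice (-2.76 ± 0.65 SE, adjusted p = 0.137), and fell in WT (-3.24 ± 0.57, adjusted p = 0.0186). Atf4 stood at 0.53 and the amino acid transporter Slc7a5 at -2.60 (adjusted p = 0.832 and 0.306).

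Zinc transporters showed no common direction, with 8 of 15 above 0 (median 0.17, and -0.25 with the 2 pairs of the reduced set) and none passing. Slc39a7 itself stood at 65.2, 126.1, 87.6, 0.0 and 137.4 CPM in FrC and 8.5, 57.7, 63.8, 137.5 and 72.7 CPM in FrD, higher in FrD of mouse 9 only (-0.79 ± 0.99 SE, adjusted p = 0.846). FrC of mouse 9 had no count of it. Mt1, a zinc-binding metallothionein, stood at 41.4, 132.8, 97.6, 23.2 and 27.1 CPM in FrC and 2.5, 0.1, 6.3, 11.8 and 16.1 CPM in FrD, without overlap. Its log2 fold change of -4.12 ± 1.13 (SE, adjusted p = 0.218) did not pass except with the 2 pairs of the reduced set (paired adjusted p = 0.0307), and its WT step was -4.37 ± 1.54 (adjusted p = 0.234).

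Among the remaining lists, immediate early genes stood at a median of 1.85 (12 of 13 above 0), interferon response genes at 1.86 (20 of 23), protein tyrosine phosphatases at 0.97 (12 of 13), p53 targets at 0.88 (9 of 12), cholesterol synthesis at 0.85 (16 of 23), proteasome subunits at -0.07, BCL2 family genes at -0.21, oxidative phosphorylation at -0.31 and pro-B and progenitor genes at -1.44 (10 of 12 below 0). None of their members passed with 5 pairs. Cholesterol synthesis changed sign, to -0.11 (11 of 23 above 0) without the block and -0.15 with the 2 pairs of the reduced set, and p53 targets stood at 0.01 (8 of 16 above 0) in the reduced set and -0.10 with its 2 pairs. In the reduced set Zfp36 (an mRNA decay factor, 1.66 ± 0.30, adjusted p = 0.0189, paired adjusted p = 0.0634), Oasl2 (at least 500.1-fold, no count in FrC, paired adjusted p = 0.12), Ptpro (at least 793.9-fold, no count in FrC, paired adjusted p = 0.148), Trp53inp1 (1.71 ± 0.34, adjusted p = 0.028) and Bmf, a proapoptotic BH3-only gene (3.61 ± 0.75, adjusted p = 0.0362, paired adjusted p = 0.291), rose. Oasl2 and Ptpro passed the filter on low counts there through FrD alone and could only lie above 0. Bmf stood at 2.3, 0.2, 4.3, 5.8 and 14.9 CPM in FrC and 26.7, 65.9, 23.2, 40.3 and 45.4 CPM in FrD, without overlap.

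**Figure D5:**
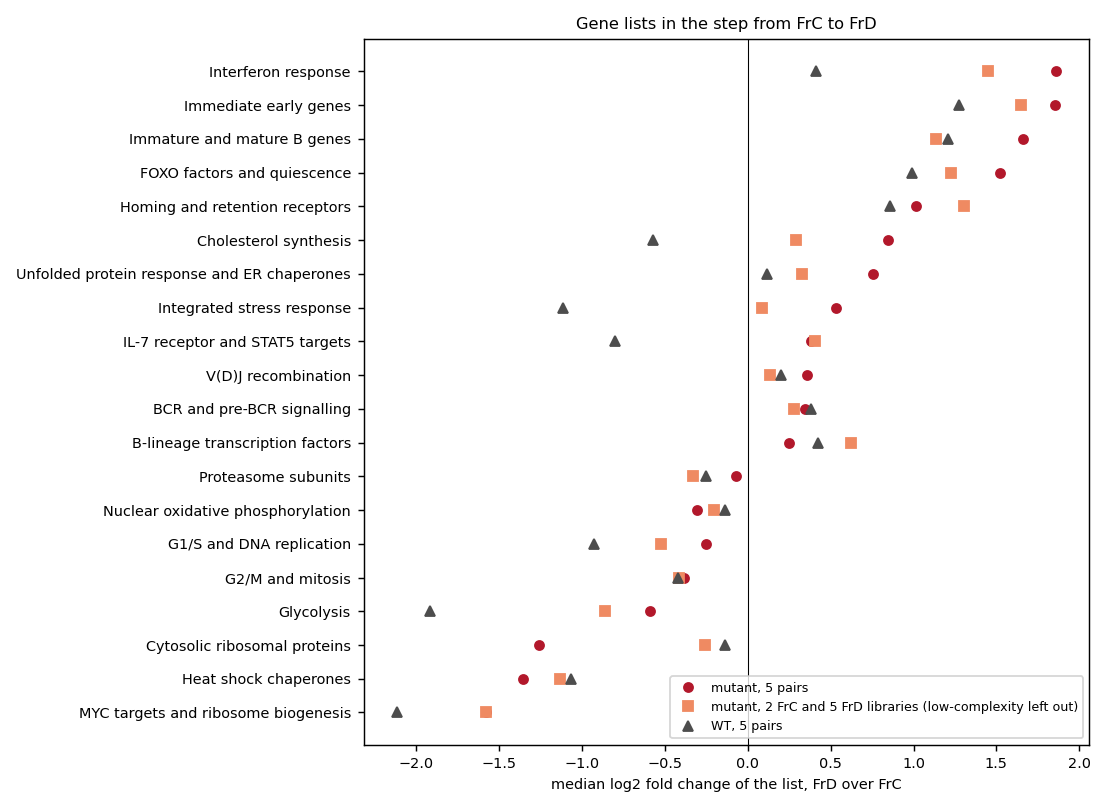
Median log2 fold change (FrD over FrC) of 20 gene lists for mutants with 5 pairs, for mutants in the reduced set of 2 FrC and 5 FrD libraries, and for WT with 5 pairs. MYC targets lie at -1.58, -1.58 and -2.12 in these 3 fits, whereas ribosomal protein genes lie at -1.26, -0.26 and -0.14. Medians of all genes in the 3 fits were 0.33, 0.11 and -0.29. Without low-complexity libraries, a fit not drawn here, ribosomal protein genes in WT stood at -0.42.

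Scaling to the ERCC counts moved the fold changes down. With pairs the median of all genes became -1.25, and 1 gene was called higher (0.00982% of those tested) and 32 lower (0.314%). Without pairs the median was -2.27, with 14 higher (0.137%) and 2560 lower (25.1%). Without pairs MYC targets stood at -4.48, heat shock chaperones at -4.09, FOXO and quiescence genes at -1.16, genes of the unfolded protein response at -1.45 and the immature and mature B list at -0.99, so that the last 3 lists lay above the median of all genes but below 0. In that fit Txnip and Hbb-bs fell (-4.95 and -7.12, adjusted p = 0.0291 and 0.0474). Dropping the block alone, with TMM, had already turned them from 1.10 and 4.62 to -2.83 and -5.02, and ERCC scaling alone, with pairs, gave -0.65 and 4.14.

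No gene passed edgeR's test of the difference between the mutant and the WT step. Over 11280 genes edgeR called 0 with the mutant step above the WT step (0%) and 0 below (0%), while 455 had an unadjusted p under 0.05, 403 with the mutant step above (3.57%) and 52 below (0.461%), and DESeq2 called 181 and 16. The median difference of all genes in that edgeR fit was 0.68, with 69.6% of genes above 0, but -0.07 without the block, with 47.9% above 0. The 403 and 52 are therefore to be read beside a shift of all genes that depends on the fit. Without the low-complexity libraries 12384 genes were tested around a median of 0.18, 0 were called and 1156 had an unadjusted p under 0.05. In WT 18 genes rose (0.16%) and 26 fell (0.23%). The lowest p belonged to Pycr1, a proline synthesis gene, which stood at 6.9, 0.2, 13.6, 0.0 and 4.4 CPM in FrC and 18.3, 5.0, 32.8, 3.5 and 19.8 CPM in FrD of mutants but went from 4.0, 24.3, 12.3, 39.5 and 8.4 to 0.0, 0.0, 0.0, 0.1 and 0.0 CPM in WT, where it fell (difference 11.13 ± 2.04 SE, adjusted p = 0.532). Colq and Sh2d2a, an adaptor of lymphocyte signalling, fell in WT (-9.85 ± 1.61 and -10.18 ± 1.70), to 0.2 CPM or less in every FrD library, and were at 1.2 to 11.7 and 0.0 to 5.6 CPM in mutant FrD (unadjusted p = 0.00079 and 0.00116). On the other side stood the splicing factor U2af2 (-2.59 ± 0.84 SE, unadjusted p = 0.00676) and Vrk3 (-1.88 ± 0.63 SE, unadjusted p = 0.00831).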

How the data were processed

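RNA of 100 sorted cells per library had been amplified from polyadenylated ends (Smart-seq2), and reads were aligned with HISAT2 2.1.0 to mm10 and assigned to genes with featureCounts 1.4.6, per the submitters' processing notes. The authors deposited raw counts per gene, and no source used here gives the strand setting or annotation release. The table held 21958 genes and 92 ERCC transcripts. Counts were tested with edgeR 4.0.16 (quasi-likelihood test, TMM scaling, Benjamini-Hochberg adjustment, filterByExpr with a minimum count of 10) in R 4.3.3, with mouse as a block. The pairing comes from the same animal, and deviations of same-mouse libraries correlated between -0.02 and 0.10. Those of different mice correlated between -0.14 and 0.10, so the same-mouse values did not stand out. Alternatives were DESeq2 1.42.0, limma 3.58.1 voom, other scalings, filters and libraries left out. ERCC scaling used summed ERCC counts. P-values with all pairs cover the spread between separate mice. The paired adjusted p of the reduced set rests on 2 mice with both fractions. It therefore holds little spread between mice and leans mostly on the variability that edgeR pools over genes. Fits without pairs treat both libraries of a mouse as separate. Intervals cover counting error only. Positions are from GENCODE M21, which held 21728 of the genes.

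TMM gave FrC of mouse 9 a factor of 0.183 (the others 0.852 to 1.392), so levels are printed unscaled. The members and gene lists were chosen with earlier results of these data known. Named were the 12 genes of lowest p in each direction, the first 3 members of each list and up to 4 more of lowest p, and the 6 of lowest p in each direction for the genotype difference, of which the text gives a part. Immunoglobulin and T cell receptor constant genes were not analysed here. Some list members are not reported by name here.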

Additional observations from a re-analysis of the deposited data

Results flagged for a closer look

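Of 74 groups of 5 libraries examined, 16 held a library whose gap to its nearest neighbour was large against the group's range (chance gives about 1 in 20 groups). Mouse 5 was far from the others in summed granulocyte and monocyte markers in mutant FrC (31448 CPM), in erythroid markers in FrD (1094.3 CPM, the low end), and in Clec4a3 (3 CPM), Hsph1 (308.6 CPM) and Csf1r (35.7 CPM) in FrC. Mouse 9 was far in erythroid markers in FrC (81542 CPM), in Wfdc17 (2.9 CPM), Ccnjl (757.9 CPM) and Vpreb1 (3129.6 CPM) in FrC, and in Cd68 (270.3 CPM), Ms4a4a (131.4 CPM), Csf1r (285 CPM) and summed stromal markers (1264 CPM) in FrD. Mouse 10 was far in NK cell markers in FrC (185.4 CPM), mouse 8 in basophil and mast cell markers in FrD (7747 CPM), and mouse 4 in Otulinl in FrC (3.2 CPM).

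The step differed between mutant and WT libraries in 3 measures of the libraries by exact permutation tests, each with an adjusted p of 0.0397. These were the number of genes detected, the percent of detected genes with 1 to 9 counts (-15.9 in mutants, 7.01 in WT) and the percent of counts in the 50 highest genes (-4.94 in mutants, 4.63 in WT).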

How the results depend on the processing

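In the mutant step, 7 genes were higher and 2 lower with mice as a block. Without the replicate block 4 and 1 were called, with RLE size factors 0 and 0, with DESeq2 400 and 331, with limma voom 17 and 16, with no filter on low counts 22 and 37, and in a fit on 20 mutant libraries 1 and 0. ERCC scaling gave 1 and 32 with pairing and 14 and 2560 without, where Hbb-bs (-7.12) and Txnip (-4.95) were below 0, as they were with TMM without the replicate block (-5.02 and -2.83). Without the low-complexity libraries the counts were 114 and 51 with the replicate block, 150 and 43 without it, and 152 and 1539 with ERCC scaling, where Tnfrsf13c was at -2.54 (-0.52 in the same libraries with TMM). Leaving out 1 mouse gave 0 to 23 higher and 0 to 11 lower with pairing, and 0 to 6 and 0 to 1 without it, the latter chosen after seeing the data. All 9 called genes were also called with DESeq2, limma voom, no filter and without mouse 4, and none was with RLE size factors or without mouse 5 or mouse 9. Their direction was the same in all 21 alternatives, but Ccnjl had no count in FrD and Apoc2 hardly any in FrC. The direction of these 2 was therefore fixed in advance.

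The WT step had 18 genes higher and 26 lower. Without the replicate block the counts were 86 and 88, with ERCC scaling 3 and 5917, and without the low-complexity library 551 and 485 with pairing and 851 and 674 without. The difference between genotypes had 0 calls, with 1 above without low-complexity libraries and with pairing, and 181 above and 16 below in DESeq2. Leaving out 1 mouse gave 0 to 0 calls.

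The endogenous to ERCC step of -2.36 had an exact permutation p of 0.0397 without pairing, which did not pass after adjustment (0.198), and leaving out 1 mouse gave -2.92 to -1.66. Its difference from WT ran from -0.691 to 0.575 and changed sign without mouse 5 (0.221) or mouse 9 (0.575). Leaving out 1 mouse, the genotype difference ran from 912.5 to 1351.2 in genes detected, from -27.7 to -13.9 in percent of genes with 1 to 9 counts, and from -11.4 to -6.59 in percent of counts in the 50 highest genes. The exact permutation p of these 3 rose to at most 0.0714. The causes were not tested. The 3 thin FrC libraries limit what all 10 libraries can show, and the reduced set rests on 2 FrC libraries.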
